A study of Rattus norvegicus with 24 samples.

Results

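Injured rat spinal cord sampled 7 days after a clip compression injury was set against injured cord sampled 3 days after the same injury, gene by gene. The comparison takes 8 of the 24 arrays of the series, 4 from rats labelled 1 week (day 7) and 4 from rats labelled 3 days (day 3), and covers all 14217 genes that the arrays measured with a probe set of 1 gene symbol. All 8 rats were female Wistar rats. In each, the laminae over T6 to T8 had been removed and a 35 g aneurysm clip had been closed on the cord at T7 for 1 min, an injury graded moderate to severe, and RNA was taken from 5 mm of cord at the epicenter. Sham rats had the laminectomy without the clip, and further rats were sampled 1, 14 and 56 days after injury; those groups appear below mainly as levels beside the comparison. Each array holds the RNA of 1 rat, so no animal was followed from one day to the other, and the segment contains every cell type of the lesion, including blood and torn meninges.

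A spinal cord injury passes through overlapping phases. Damaged tissue first releases alarm signals, switches on immediate early and heat shock genes, and draws in neutrophils and monocytes through chemokines. Resident microglia and incoming macrophages then clear myelin debris, loading their lysosomes with lipid, while fibroblasts and astrocytes lay down scar matrix around the lesion. Neurons and axons at the epicenter are lost early, and surviving axotomised neurons may turn on growth-associated genes and neuropeptides.

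Values are log2 expression levels, in which a step of 1 is a factor of 2, and a level cannot be set against that of another gene because each probe set has its own brightness. Arrays of the same day correlated at 0.973 to 0.992 on day 7 and 0.990 to 0.993 on day 3, and arrays of different days at 0.951 to 0.979. The median level per array was 4.31 to 4.33 on day 7 and 4.29 to 4.38 on day 3 (exact two-sided permutation test of 4 against 4 arrays, p = 0.657, with 0.029 the smallest p possible). Control probe sets without a target averaged 2.63 to 2.70 on day 7 and 2.62 to 2.78 on day 3 (exact p = 0.400), and the difference between the 3′ and 5′ probe sets of Gapdh was -0.04 to 0.04 on day 7 and 0.03 to 0.09 on day 3 (exact p = 0.0571). By the study's methods each time point was pre-processed on its own, so the day and its pre-processing cannot be told apart. Day 7 replicates 2 and 3 lay farthest apart within their group on the first and second principal components of the 8 arrays. The first held 64.4% of the variance and separated the days. On it replicates 2 and 3 stood at 95.3 and 29.2, replicates 1 and 4 at 82.8 and 55.0, and the day 3 arrays at -77.8 to -55.3. On the second, which held 14.8%, replicates 2 and 3 lay on opposite sides. The groups of the series did not line up in the order of their labelled days: the mean levels of day 7 correlated at 0.996 with day 14, at 0.988 with day 1 and at 0.974 with day 3 across genes, and those of sham cord at 0.934 with day 1 and 0.969 with day 3. Mki67, a protein of dividing cells, averaged 4.98 in sham cord and 11.71, 9.09 and 9.64 on days 1, 3 and 7, and the heat shock gene Hspa1a 7.56, 10.04, 12.25 and 6.27. Whether the arrays labelled 1 day and 3 days were exchanged was not tested and cannot be told from these values. The labels are taken as given, so every difference below is one between arrays labelled 1 week and arrays labelled 3 days, and would be one between day 7 and day 1 if the labels were exchanged.

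Of the 14217 genes, 4090 differed between day 7 and day 3 at an adjusted p under 0.05 (limma, Benjamini-Hochberg), which is 28.8%. Among them 1748 rose on day 7 (12.3% of all genes) and 2342 fell (16.5%). A difference of at least 1 was reached by 863 of the genes that rose (6.07%) and by 797 of those that fell (5.61%), 1660 or 11.7% in all, and a difference of at least 4 by 68 genes that rose and 35 that fell. The 4 day 7 values lay wholly above the 4 day 3 values in 1560 genes (11.0%) and wholly below them in 2086 (14.7%). The median difference over all genes was -0.02, with a median standard error of 0.14. Without day 7 replicates 2 and 3 the total was 3430 genes, 3274 of them shared with the 4090. Counts of list members below are read against these shares of all genes, 12.3% higher and 16.5% lower. Among the 15 largest rises were matrix genes (Lum, Col3a1, Dcn, Mmp2, Col1a1) and macrophage genes (Adgre1, Apoc1), and among the 15 largest falls alarm and stress genes (S100a9, S100a8, Fosl1, Hspa1a).

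**Figure D1:**
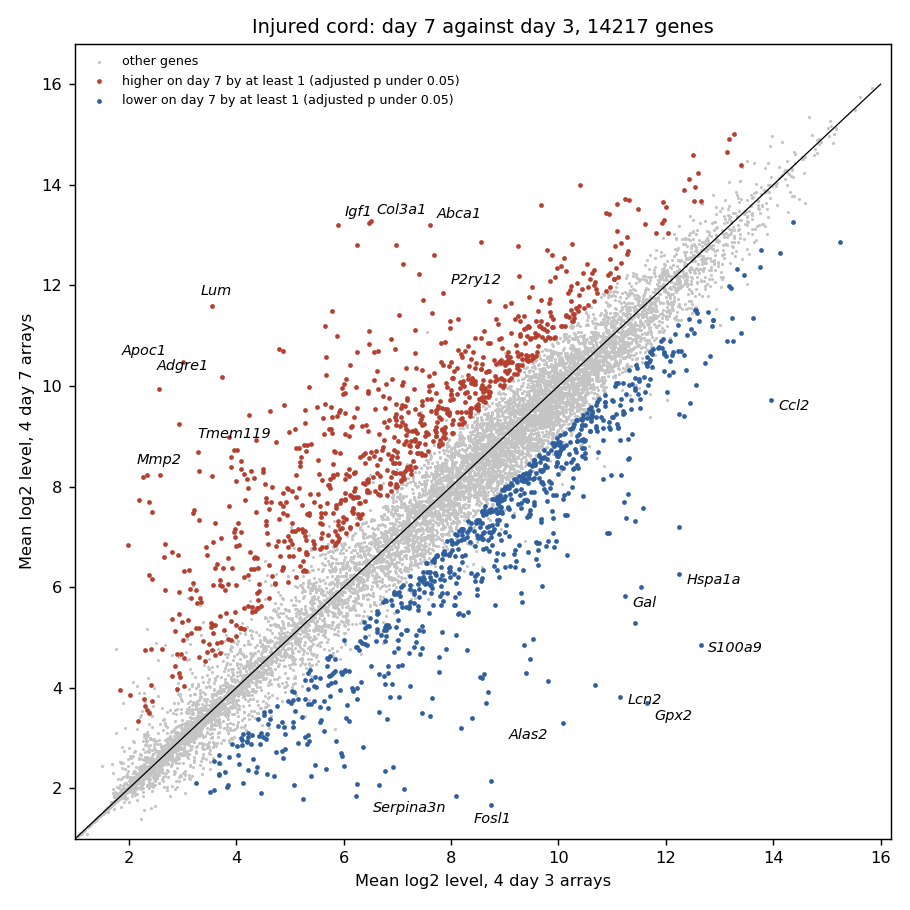
Each point is 1 of 14217 genes, with its mean log2 level over the 4 day 3 arrays on the x axis and over the 4 day 7 arrays on the y axis; coloured points passed the test with a difference of at least 1. The 863 rising and 797 falling genes spread away from the diagonal, with Lum highest above it and Gpx2 lowest below it.

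Lum encodes lumican, a proteoglycan of the small leucine-rich family that spaces collagen fibrils, and it showed the largest rise. Its levels were 12.67, 12.78, 10.43 and 10.51 on day 7, against 5.38, 2.48, 2.53 and 3.79 on day 3, a difference of 8.05 ± 0.70 (adjusted p = 8.48e-08); here and below, the value after ± is the standard error of the difference. Apoc1, an apolipoprotein of lipid-laden macrophages, had 11.11, 12.19, 9.37 and 9.24 on day 7, against 2.29, 4.40, 3.07 and 2.28 on day 3 (7.46 ± 0.69, adjusted p = 1.95e-07). Igf1, the insulin-like growth factor that activated microglia and macrophages secrete, had 13.61, 14.10, 12.07 and 12.997 on day 7, against 7.66, 6.49, 5.42 and 3.98 on day 3 (7.31 ± 0.52, adjusted p = 6.44e-09). In these genes the lowest day 7 array was above the highest day 3 array by several units, and day 7 replicates 1 and 2 were the brightest. Other large rises were those of Plbd1, a lysosomal phospholipase-like protein (7.38 ± 0.57), Fcrl2, an Fc receptor-like gene (6.77 ± 0.76), Adgre1, which encodes the macrophage antigen F4/80 (6.45 ± 0.48), Lbp, which carries bacterial lipopolysaccharide to its receptor (6.32 ± 1.40), and Cndp1, a dipeptidase (5.95 ± 0.41). Plxnc1, a receptor for a semaphorin, was at least 30.9-fold higher on day 7 (adjusted p = 5.20e-08), because all 4 day 3 arrays were at or under the brightest control probe set without a target (3.24). Folds of this kind are lower bounds against that level. Other differences also rest partly on arrays at that level: with such arrays set to it, the difference was 7.69 for Lum (2 day 3 arrays), 6.95 for Apoc1, 6.57 for Plbd1 and 5.54 for Lbp (3 day 3 arrays each).

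Gpx2, a glutathione peroxidase, showed the largest fall as fitted. Its levels were 3.97, 2.42, 2.43 and 5.94 on day 7, against 12.01, 10.97, 11.61 and 11.99 on day 3 (-7.95 ± 0.49, adjusted p = 1.32e-09), and its sham mean was 2.41. With the 2 day 7 arrays under the control level set to it, the difference was -7.55, smaller than that of S100a9. S100a9, a calcium-binding alarm protein of neutrophils and monocytes, had 4.23, 6.74, 4.19 and 4.25 on day 7, against 12.60, 12.85, 13.23 and 11.93 on day 3 (-7.80 ± 0.55, adjusted p = 6.06e-09). Every day 7 value was below every day 3 value. Day 7 replicate 2 kept the highest S100a9 value among the day 7 arrays, the other three lying near the sham mean of 4.18, and day 7 replicate 4 the highest Gpx2 value. Alas2, the erythroid enzyme of heme synthesis, had 3.49, 3.22, 3.09 and 3.41 on day 7, against 9.50, 10.87, 7.94 and 12.06 on day 3 (-6.79 ± 0.95, adjusted p = 2.60e-05). Stfa2l2, a stefin-like inhibitor of cysteine proteases (-5.67 ± 0.61), and Ecscr, an endothelial surface protein (-5.10 ± 0.35), also fell, with every day 7 value below every day 3 value.

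**Figure D2:**
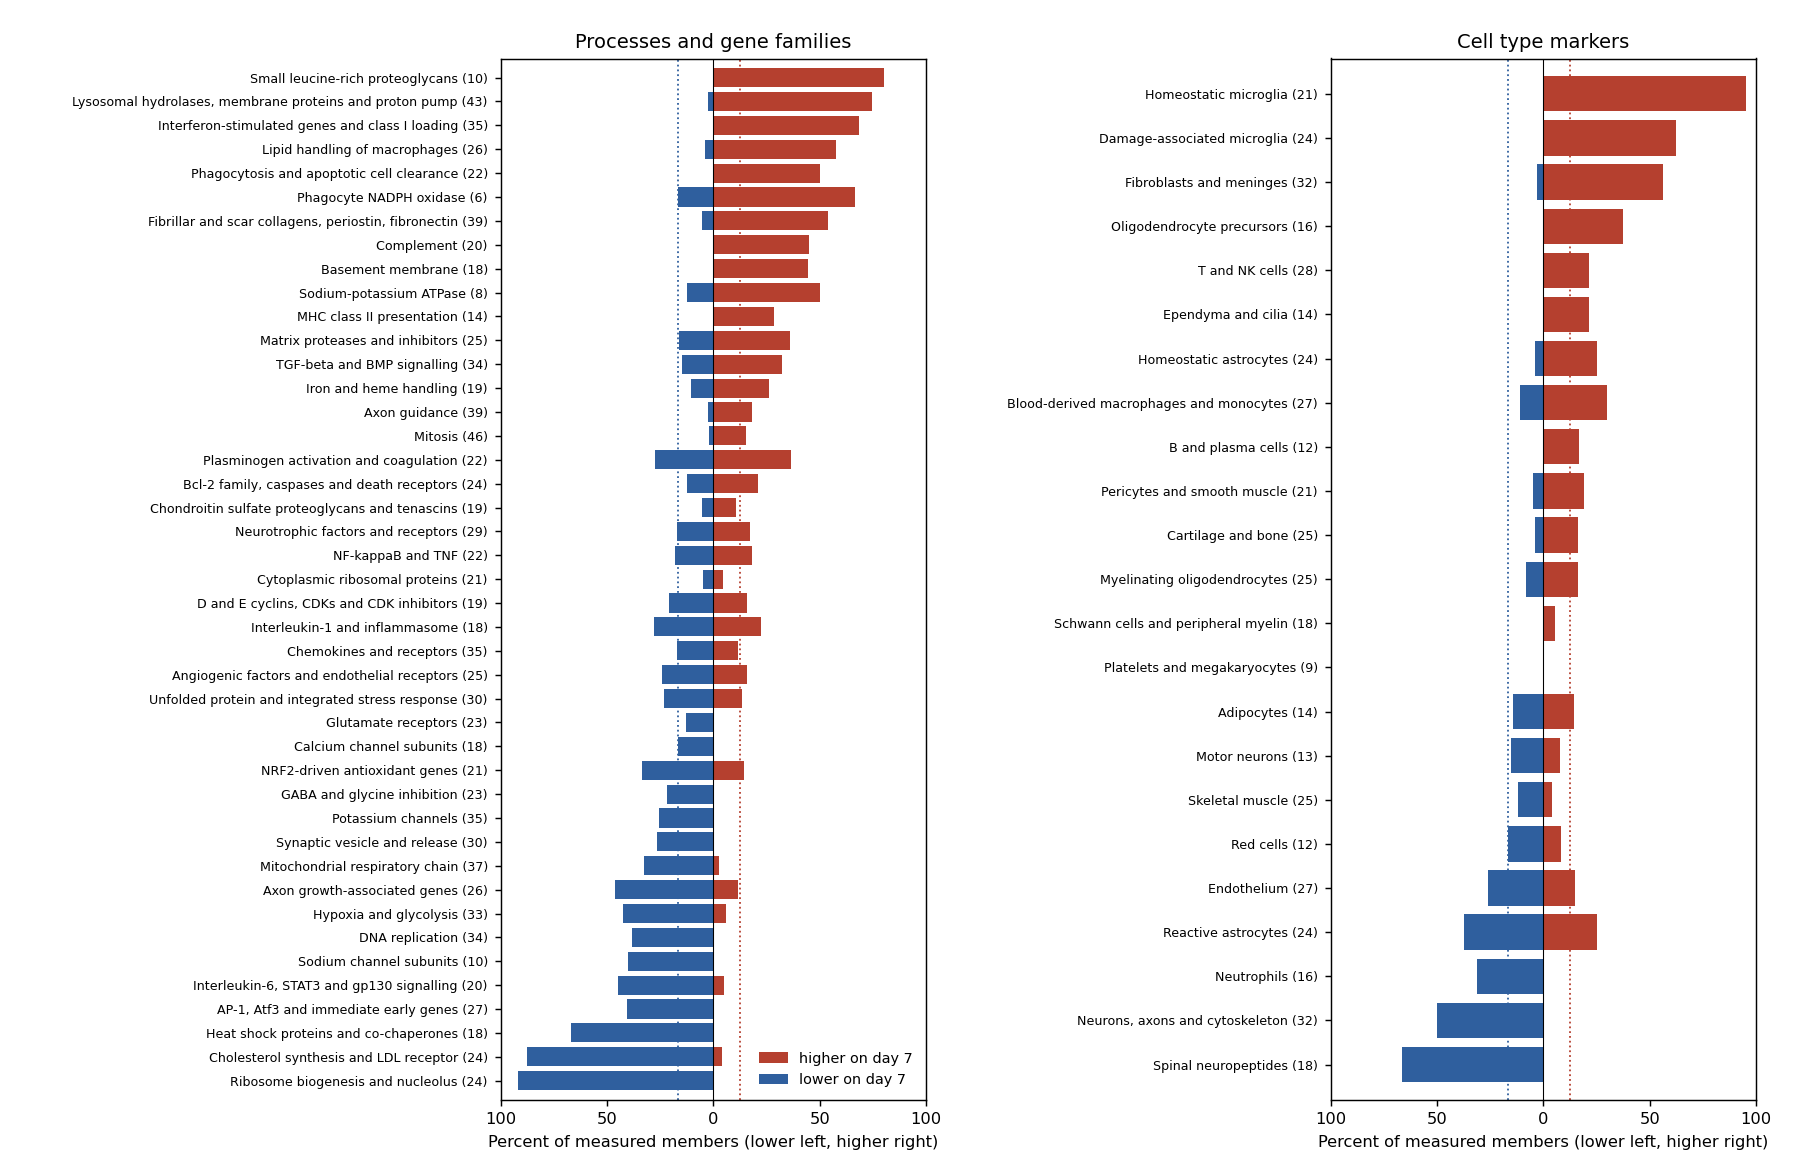
Bars give, for the lists of processes and families (left panel, reference genes left out) and the 23 lists of cell type markers (right panel), the percent of measured members (number in brackets) that were higher (right) or lower (left) on day 7 at an adjusted p under 0.05. Dotted lines mark the share of all genes, 12.3% higher and 16.5% lower; homeostatic microglia (20 of 21 higher) and ribosome biogenesis (22 of 24 lower) are at the ends.

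Microglia are the resident macrophages of the cord, and the homeostatic microglia list holds genes used to mark them. Not every member is confined to microglia, and Trem2 and Tyrobp are also in the damage-associated list. Genes of the homeostatic list were higher on day 7 with 1 exception: 20 of 21 measured members rose and none fell, with a median difference of 2.48, against 12.3% of all genes. P2ry12, the receptor by which microglial processes sense ATP and ADP, had 11.73, 11.37, 11.76 and 12.52 on day 7, against 8.11, 7.18, 7.74 and 8.37 on day 3. It differed by 3.99 ± 0.28 (adjusted p = 4.93e-09) and by more than the whole spread within either group. Tmem119, a membrane protein used to mark microglia, had 8.82, 8.30, 9.44 and 9.02 on day 7, against 4.20, 4.12, 5.15 and 5.52 on day 3 (4.15 ± 0.40, adjusted p = 3.02e-07). Gpr34, a lysophospholipid receptor, differed by 4.31 ± 0.23, and Trem2, the lipid receptor through which microglia take up myelin debris, by 4.37 ± 0.36; neither overlapped between the days. Cx3cr1, the fractalkine receptor, differed by 2.39 ± 0.34. Siglec5, a sialic acid-binding receptor, was the member that did not pass, at 6.41, 6.42, 3.52 and 3.86 on day 7, against 3.22, 3.09, 2.97 and 4.06 on day 3 (adjusted p = 0.241).

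In 14 of these 21 genes the day 3 mean lay below that of sham cord, and in 20 the day 7 mean lay above it. P2ry12 averaged 10.53 in sham cord, 11.06 on day 1, 7.85 on day 3, 11.84 on day 7, 11.53 on day 14 and 10.88 on day 56. The median member stood at 8.62 in sham cord, 11.06 on day 1, 8.004 on day 3, 11.41 on day 7, 11.14 on day 14 and 11.05 on day 56. In bulk tissue, more microglia, more macrophages that share some of these RNAs, and more of these RNAs per cell cannot be told apart. Of the damage-associated microglia list, which holds genes that microglia turn on around debris, 15 of 24 rose and none fell (median difference 0.98). Lpl, the lipoprotein lipase of that state, had 9.66, 11.04, 7.33 and 8.79 on day 7, against 6.95, 5.63, 6.13 and 5.90 on day 3 (3.05 ± 0.66, adjusted p = 0.00186). Spp1, which encodes osteopontin and belongs to the same list, did not pass, at 14.25, 14.69, 13.04 and 13.92 on day 7, against 13.64, 14.03, 14.44 and 13.80 on day 3 (adjusted p = 0.997).

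**Figure D3:**
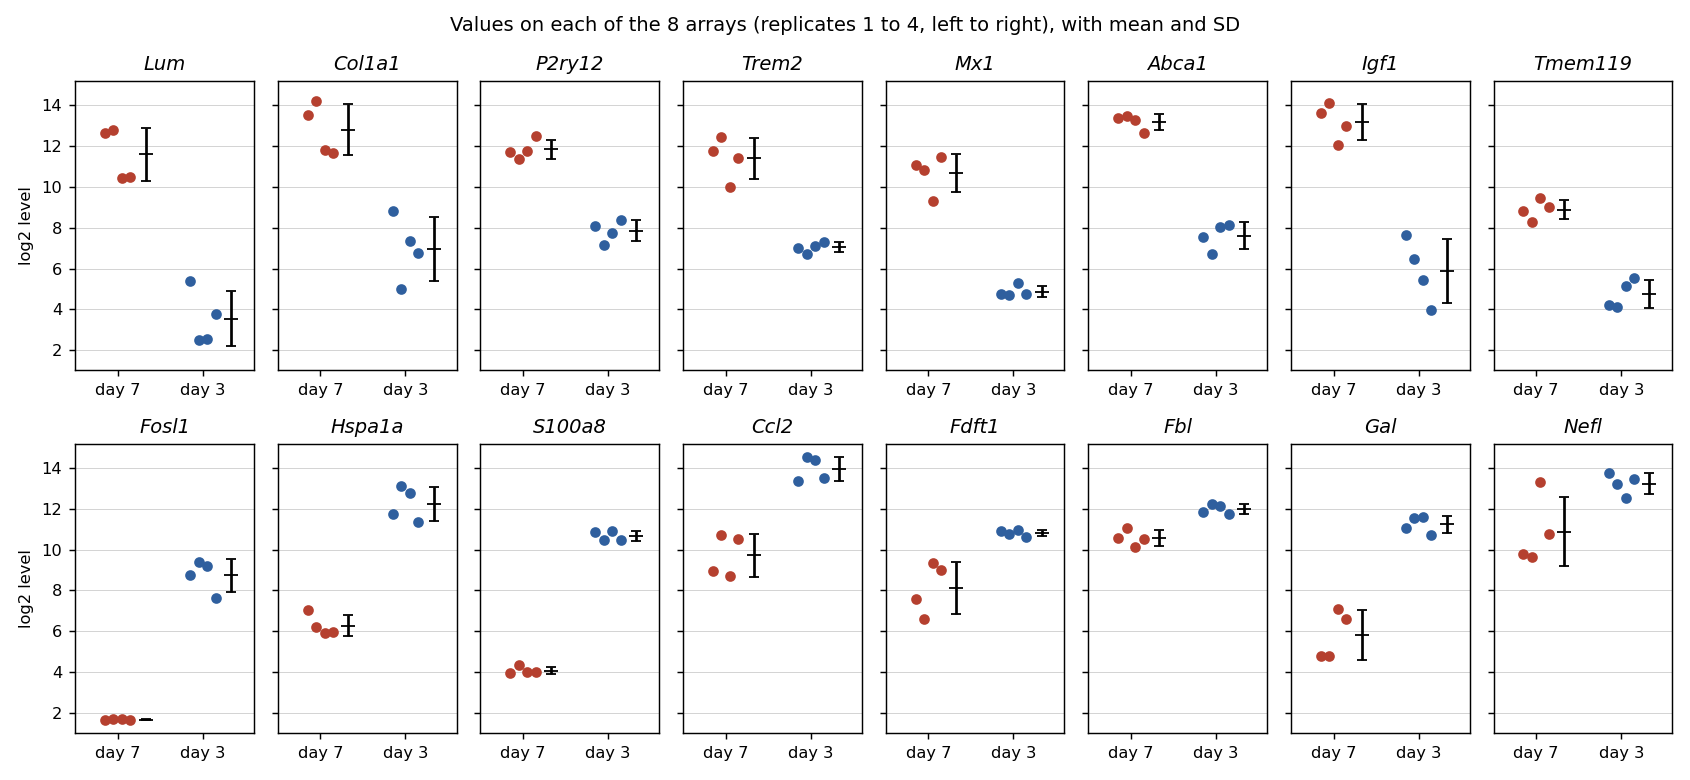
Log2 levels of 16 genes on the 4 day 7 arrays (left in each panel) and the 4 day 3 arrays (right), with bars for the mean ± SD. Genes of the upper row are higher on day 7 and those of the lower row lower, and in Nefl day 7 replicate 3 lies among the day 3 values.

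Lysosomes hold the acid hydrolases that digest what phagocytes take up. Of 43 measured genes of lysosomal hydrolases, membrane proteins and the proton pump, 32 rose on day 7 and 1 fell, with a median difference of 0.99. Cd68, the macrophage lysosomal membrane protein, had 12.10, 13.03, 10.31 and 11.37 on day 7, against 6.87, 7.46, 8.21 and 7.38 on day 3 (4.22 ± 0.64, adjusted p = 5.86e-05). Ctsk, a collagen-degrading cathepsin, differed by 4.05 ± 0.45, Acp5, an acid phosphatase of macrophages and osteoclasts, by 3.78 ± 0.58, and Ctsa, a serine carboxypeptidase, by 1.69 ± 0.18. Gusb, the lysosomal beta-glucuronidase often used as a reference gene, had 10.27, 10.79, 9.07 and 9.51 on day 7, against 6.54, 5.77, 6.45 and 7.07 on day 3 (3.45 ± 0.34, adjusted p = 4.79e-07). The days did not overlap for any of these. Of 6 members of the proton pump 2 rose and 1 fell. Atp6v1a, its catalytic subunit, had 12.14, 12.55, 12.05 and 11.90 on day 7, against 12.38, 12.53, 12.15 and 12.19 on day 3 (-0.15 ± 0.11, adjusted p = 0.459), and Atp6v1h, a regulatory subunit, was the member that fell (-0.47 ± 0.09, adjusted p = 9.38e-04). Cd63, a tetraspanin of late endosomes, overlapped between the days (-0.10 ± 0.13, adjusted p = 0.753).

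Many lysosomal genes are bound by the transcription factor TFEB at an E-box. The promoter of cathepsin D is printed because its gene had the largest difference among members that passed and carry that motif. The sequences here are RefSeq promoters of the rat assembly GRCr8, from 250 bases before to 50 bases after the start of transcription, written 5′ to 3′ on the strand of the gene with the motif in capitals. The letters searched were TCACGTGA, which read the same on both strands and contain the core CACGTG. They were in 4 of 35 list members with a promoter (11.4%; 3 of the 26 that passed the test) and in 0.867% of 27457 promoters. Ctsd encodes the main aspartic protease of lysosomes and is not among the genes that the naming rule gives; it had 14.39, 14.55, 13.80 and 14.17 on day 7, against 12.39, 12.42, 12.96 and 12.64 on day 3 (1.62 ± 0.17, adjusted p = 1.17e-06). Its match begins 11 bases before the start. A match is a string of letters and shows no binding.
Ctsd, chr1:206968772-206969071, minus strand: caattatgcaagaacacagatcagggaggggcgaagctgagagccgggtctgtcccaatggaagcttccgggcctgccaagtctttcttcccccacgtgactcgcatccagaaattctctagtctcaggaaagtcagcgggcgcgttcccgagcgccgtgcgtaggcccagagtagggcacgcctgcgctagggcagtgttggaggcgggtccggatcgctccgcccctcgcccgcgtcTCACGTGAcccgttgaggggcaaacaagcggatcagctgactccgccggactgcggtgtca

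Of 26 genes for the handling of lipid by macrophages, 15 rose and 1 fell (median difference 1.06). Abca1, the pump that exports cholesterol to lipoproteins, had 13.38, 13.49, 13.28 and 12.63 on day 7, against 7.56, 6.70, 8.05 and 8.12 on day 3 (5.59 ± 0.43, adjusted p = 1.45e-08), and Apoe, which accepts that cholesterol, 14.98, 15.11, 14.73 and 14.85 on day 7, against 13.05, 13.11, 13.39 and 13.15 on day 3 (1.74 ± 0.09, adjusted p = 2.42e-10). Both were above their sham mean on day 7 (10.57 and 14.14) and below it on day 3. Pltp, which moves phospholipid between lipoproteins, differed by 5.33 ± 0.30. Cd36, a scavenger receptor for oxidised lipid, was the member that fell, with 8.61, 9.29, 5.25 and 6.62 on day 7, against 10.14, 9.63, 10.42 and 10.28 on day 3 (-2.68 ± 0.83, adjusted p = 0.0258); the call was lost without any 1 of day 7 replicates 3 and 4 and day 3 replicates 1, 3 and 4 (adjusted p 0.0521 to 0.0985).

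Receptors and opsonins for phagocytosis rose in 11 of 22 cases, and none fell. Colec12, a scavenger collectin, had 10.34, 10.22, 8.79 and 8.31 on day 7, against 6.33, 3.04, 3.38 and 4.20 on day 3 (5.18 ± 0.69, adjusted p = 1.39e-05), Stab1, a clearance receptor of tissue macrophages, differed by 4.41 ± 0.62, Itgb5, an integrin that binds apoptotic cells through a bridging protein, by 2.53 ± 0.17, and Mertk, the kinase receptor for dying cells, by 1.47 ± 0.21. Of the phagocyte NADPH oxidase, which makes superoxide, 4 of 6 members rose, among them Ncf1 (4.24 ± 0.53), Cyba (1.89 ± 0.41) and Rac2 (1.48 ± 0.35), and 1 fell, Ncf4, with 6.38, 7.60, 5.01 and 6.16 on day 7, against 7.11, 8.09, 8.02 and 7.55 on day 3, whose days overlapped (adjusted p = 0.0295, and 0.0556 to 0.114 without any 1 of day 7 replicates 1, 3 and 4 and day 3 replicates 2 and 3). In complement, 9 of 20 rose and none fell. C1qa, a chain of the recognition molecule C1q, had 13.77, 13.92, 13.19 and 13.62 on day 7, against 11.14, 10.84, 11.23 and 11.17 on day 3 (2.53 ± 0.22, adjusted p = 8.61e-08), and Serping1, the inhibitor of the C1 proteases, 10.81, 10.41, 9.78 and 9.50 on day 7, against 7.98, 5.39, 5.68 and 7.21 on day 3 (3.56 ± 0.56, adjusted p = 9.04e-05). C3, the central component, had 9.63, 9.64, 11.66 and 11.66 on day 7, against 8.52, 8.78, 9.40 and 9.29 on day 3 (1.65 ± 0.63, adjusted p = 0.0722) and did not pass. C5ar1, the receptor for the C5a fragment, did not pass (-0.78 ± 0.65, adjusted p = 0.522).

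Interferons induce a programme of antiviral and antigen-loading genes through STAT and IRF factors. Of 35 such genes, 24 rose on day 7 and none fell, with a median difference of 1.78. Mx1, a dynamin-like antiviral GTPase, had 11.10, 10.86, 9.31 and 11.48 on day 7, against 4.75, 4.69, 5.31 and 4.75 on day 3 (5.82 ± 0.69, adjusted p = 3.69e-06), and Mx2 10.27, 9.31, 9.62 and 10.75 on day 7, against 6.20, 6.77, 5.58 and 6.39 on day 3 (3.75 ± 0.43, adjusted p = 2.91e-06). Both were under their sham means (5.54 and 7.88) on all 4 day 3 arrays and above them on all 4 day 7 arrays. Ifitm1, a membrane protein that blocks virus entry, differed by 4.31 ± 0.39, and Ifit2, which binds foreign RNA, by 3.57 ± 0.55. Day 7 replicate 3 was the lowest day 7 array for Mx1, Ifitm1 and Ifit2. B2m, the light chain of class I molecules, differed by 0.96 ± 0.11 (adjusted p = 2.01e-06). Ifit3, a partner of Ifit2, did not follow, at 7.60, 7.39, 5.10 and 8.45 on day 7, against 6.89, 8.81, 8.34 and 6.51 on day 3 (-0.50 ± 0.75, adjusted p = 0.785). Ifgga2l1, an interferon-gamma-inducible GTPase outside the list, rose by 5.70 ± 0.49.

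The interferon-stimulated response element, searched as GAAA, any 2 bases and GAAA, or TTTC, any 2 bases and TTTC on the other strand, was in 19 of the 27 list members with a promoter (70.4%; 12 of the 18 that passed the test), against 3.77% of all promoters. Promoters of Psmb8, a subunit of the immunoproteasome that cuts peptides for class I, and Irgm, an immunity-related GTPase, are printed. Each holds 1 match, 4 and 34 bases before the start. These genes are outside the naming rule and had the largest differences among members that passed and hold a match. Psmb8 had 9.10, 10.40, 7.61 and 9.14 on day 7, against 5.05, 6.11, 5.27 and 6.71 on day 3 (3.28 ± 0.48, adjusted p = 4.74e-05), and Irgm 8.14, 8.46, 7.01 and 8.27 on day 7, against 5.16, 4.95, 4.81 and 4.87 on day 3 (3.02 ± 0.35, adjusted p = 2.58e-06). Their days did not overlap.
Psmb8, chr20:4656982-4657281, minus strand: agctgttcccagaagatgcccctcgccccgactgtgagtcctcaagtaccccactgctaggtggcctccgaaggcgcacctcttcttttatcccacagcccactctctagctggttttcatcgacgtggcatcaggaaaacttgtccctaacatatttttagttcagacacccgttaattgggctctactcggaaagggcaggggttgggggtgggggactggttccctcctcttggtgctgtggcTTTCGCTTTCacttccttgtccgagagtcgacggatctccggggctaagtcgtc
Irgm, chr10:33742529-33742828, minus strand: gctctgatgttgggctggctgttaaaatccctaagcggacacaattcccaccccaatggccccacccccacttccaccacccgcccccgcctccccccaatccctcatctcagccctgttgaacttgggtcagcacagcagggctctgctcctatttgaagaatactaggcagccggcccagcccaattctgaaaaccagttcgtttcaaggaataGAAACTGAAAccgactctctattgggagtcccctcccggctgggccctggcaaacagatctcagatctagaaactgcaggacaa

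Of 14 genes of class II presentation 4 rose and none fell. These were the costimulator Cd86 (2.32 ± 0.35), the thiol reductase Ifi30 (2.05 ± 0.33) and the proteases Ctss (1.70 ± 0.11) and Lgmn (0.88 ± 0.20), which process antigen. Cd74, the invariant chain of class II molecules, had 10.05, 11.20, 10.49 and 10.58 on day 7, against 9.25, 10.15, 10.11 and 10.03 on day 3 (0.70 ± 0.51, adjusted p = 0.440), and RT1-DMa, which helps to load them, 11.18, 11.73, 10.02 and 11.15 on day 7, against 10.60, 10.71, 10.77 and 10.85 on day 3 (0.29 ± 0.30, adjusted p = 0.647). The days overlapped in both.

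Fibroblasts of the meninges and of vessel walls build the fibrous core of a spinal cord scar. Genes that mark them rose on day 7 in 18 of 32 cases and fell in 1, with a median difference of 2.02. The small leucine-rich proteoglycans rose in 8 of 10 cases (median difference 3.62). Dcn, which encodes decorin, had 13.55, 13.64, 12.07 and 11.93 on day 7, against 10.78, 3.35, 4.46 and 6.42 on day 3 (6.55 ± 1.03, adjusted p = 9.02e-05). Fmod, which encodes fibromodulin, had 7.46, 5.23, 8.90 and 8.36 on day 7, against 2.54, 2.25, 2.42 and 2.53 on day 3 and was at least 19.0-fold higher on day 7 (adjusted p = 4.34e-05). Omd, osteomodulin, differed by 4.03 ± 0.57, and Aspn, asporin, by 2.02 ± 0.73, which did not pass (adjusted p = 0.0534). For Dcn, Fmod and Omd the sham mean was 10.62, 7.47 and 7.12, above most or all day 3 arrays.

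Of 39 genes for fibrillar and scar collagens and their partners, 21 rose and 2 fell (median difference 1.05); without day 7 replicates 2 and 3 the counts were 16 and 1. Col1a1, the main chain of collagen I, had 13.52, 14.20, 11.81 and 11.69 on day 7, against 8.80, 4.99, 7.35 and 6.76 on day 3 (5.83 ± 0.75, adjusted p = 9.73e-06). Col3a1, collagen III of early scar, had 13.84, 14.43, 12.40 and 12.30 on day 7, against 10.05, 3.48, 4.05 and 8.33 on day 3 (6.76 ± 1.08, adjusted p = 1.10e-04). In both genes the groups did not overlap, but day 3 was uneven: replicate 1 was the brightest day 3 array for Col1a1, Col3a1 and Dcn, by several units over replicate 2. Day 3 replicate 1 was also the highest day 3 array in the mean of the fibroblast list, with 9.40, 8.88, 8.74 and 8.09 on day 7 replicates 1 to 4 and 7.49, 5.54, 5.89 and 6.46 on day 3 replicates 1 to 4. Col1a2 differed by 4.92 ± 0.65 and Pcolce, which helps to cut procollagen, by 4.87 ± 0.79. Fn1, fibronectin, had 11.60, 12.01, 11.37 and 10.87 on day 7, against 11.998, 12.18, 12.53 and 12.12 on day 3 (-0.74 ± 0.41, adjusted p = 0.252), and Lox, the crosslinking oxidase of collagen, 10.30, 10.96, 9.20 and 9.42 on day 7, against 11.71, 10.22, 11.02 and 10.61 on day 3 (-0.92 ± 0.68, adjusted p = 0.448); neither passed. P4ha3, a prolyl hydroxylase of collagen, was at least 4.47-fold lower on day 7 (adjusted p = 5.37e-09), with all 4 day 7 arrays at the control level.

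Basement membrane genes rose in 8 of 18 cases and none fell. Col15a1 (4.02 ± 0.66), the nidogen Nid2 (3.96 ± 0.69) and Col4a5 (3.50 ± 0.50) rose, while Col4a1, the common chain of collagen IV, had 10.26, 10.82, 8.65 and 8.91 on day 7, against 9.87, 9.67, 9.59 and 9.38 on day 3 (0.03 ± 0.48, adjusted p = 0.981), and Lamc1, a laminin chain, differed by -0.46 ± 0.30 (adjusted p = 0.348). Of the chondroitin sulfate proteoglycans and tenascins, which limit axon growth in glial scar, 2 of 19 rose and 1 fell. The 2 that rose were Bcan, the proteoglycan brevican of brain and cord (2.35 ± 0.28), and Tnr, tenascin-R (1.83 ± 0.18). The member that fell was the hyaluronan receptor Cd44 (-0.68 ± 0.19, adjusted p = 0.0155), whose call was lost without any 1 of day 7 replicate 3 and day 3 replicate 3 (adjusted p 0.0608 to 0.0630). Tnc, the tenascin of injury, had 10.23, 11.67, 10.41 and 11.001 on day 7, against 10.77, 11.43, 11.66 and 10.29 on day 3 (-0.21 ± 0.54, adjusted p = 0.873).

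**Figure D4:**
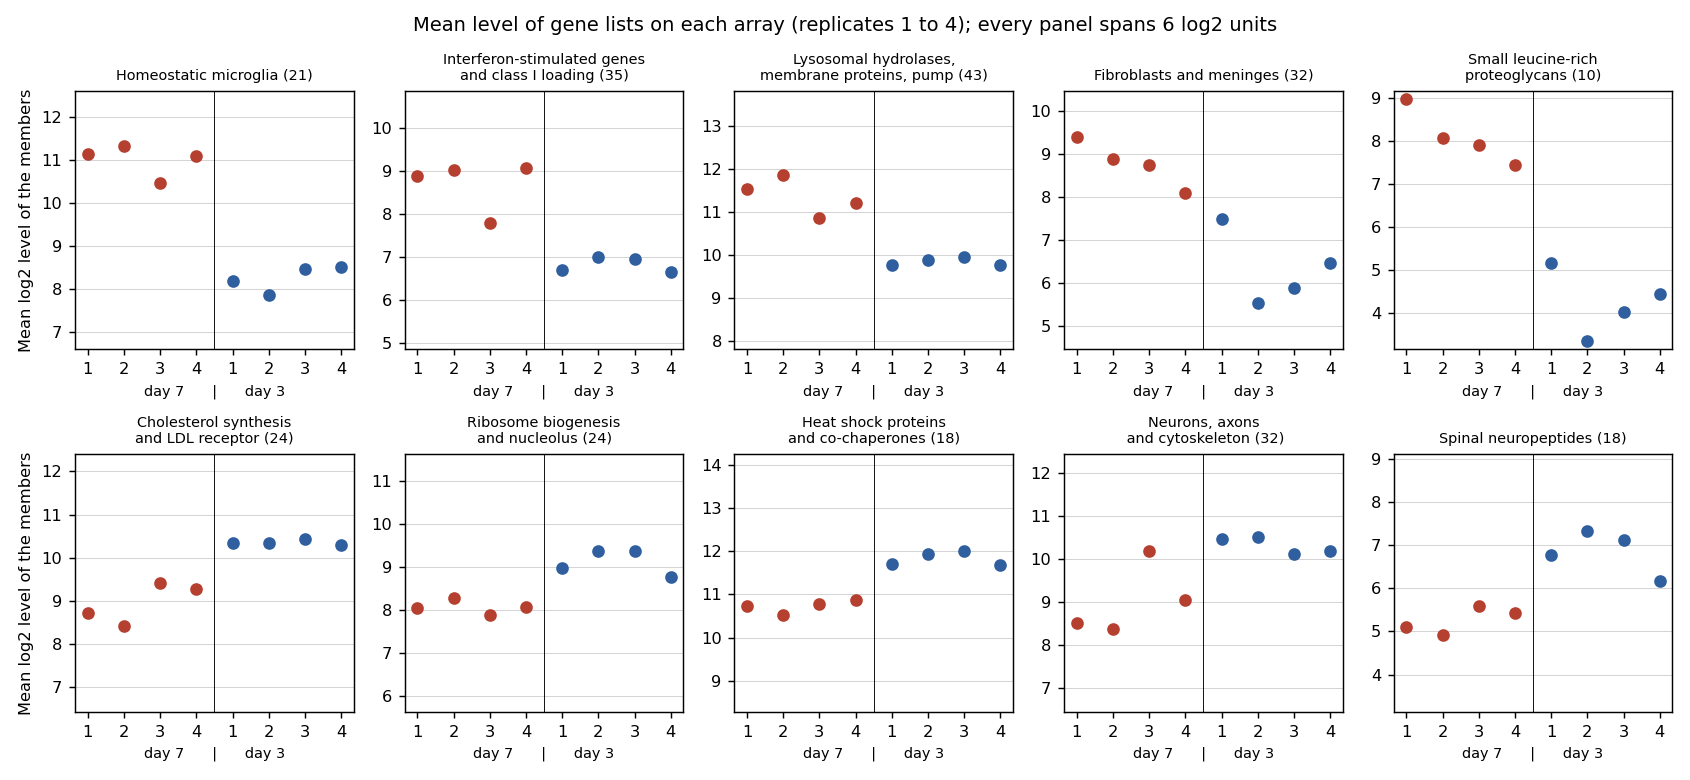
Mean log2 level of the measured members of 10 gene lists on each day 7 array (left) and day 3 array (right), replicates 1 to 4; every panel spans 6 log2 units. In the upper row all 4 day 7 means lie above the day 3 means, and in the lower row below them, except for day 7 replicate 3 in the neuron list (10.20).

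Of 25 matrix proteases and inhibitors 9 were higher and 4 lower on day 7, and 6 and 4 without day 7 replicates 2 and 3; the share that fell was close to the 16.5% of all genes. Mmp2, gelatinase A of fibroblasts, had 8.60, 9.23, 7.09 and 7.99 on day 7, against 2.52, 2.08, 2.28 and 2.51 on day 3 and was at least 31.8-fold higher on day 7 (adjusted p = 3.63e-09). Mmp12, the elastase of macrophages, had 10.78, 11.19, 7.66 and 8.87 on day 7, against 3.20, 5.02, 5.19 and 6.15 on day 3 (4.73 ± 0.73, adjusted p = 7.91e-05). Mmp3, stromelysin 1, went the other way, with 2.12, 2.15, 2.16 and 2.12 on day 7, against 8.43, 9.47, 9.67 and 7.43 on day 3, at least 45.6-fold lower on day 7 (adjusted p = 2.13e-09). Adamts1 and Adamts9, proteases of aggregating proteoglycans, also fell (-1.67 ± 0.26 and -3.18 ± 0.35). The groups did not overlap for any of these proteases. Timp1, an inhibitor of the family, was among the 4, with 12.86, 12.69, 12.59 and 12.68 on day 7, against 14.11, 13.57, 13.71 and 13.74 on day 3, but leaving out any single array of either day removed its call (-1.07 ± 0.37, adjusted p = 0.0436, and 0.0608 to 0.116 without 1 array). A pair of serine protease inhibitors stood at opposite ends. Serpinf1, which encodes the anti-angiogenic factor PEDF, rose by 5.39 ± 0.99 (4.86 with the 3 day 3 arrays under the control level set to it), and Serpina3n, an acute phase inhibitor, had 1.84, 1.87, 1.87 and 1.85 on day 7, against 8.74, 7.63, 6.90 and 9.07 on day 3 and was at least 28.8-fold lower on day 7 (adjusted p = 2.16e-11).

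Of 34 genes of TGF-beta and BMP signalling, which are ligands, antagonists, receptors, mediators and targets, 11 were higher and 5 lower, and 8 and 5 without day 7 replicates 2 and 3; the share that fell was not above the 16.5% of all genes. Tgfb1, the main fibrogenic ligand, had 9.82, 10.59, 8.71 and 9.06 on day 7, against 7.49, 7.28, 8.62 and 8.17 on day 3 (1.66 ± 0.39, adjusted p = 0.00411), and its receptor Tgfbr1 12.97, 13.08, 12.16 and 12.62 on day 7, against 9.46, 9.64, 10.04 and 10.04 on day 3 (2.91 ± 0.18, adjusted p = 1.32e-09). Bmp6 (4.08 ± 0.80) and Bmp4 (1.82 ± 0.26), bone morphogenetic proteins, rose. Bmp2, another such ligand, had 2.37, 2.40, 2.37 and 2.27 on day 7, against 5.34, 7.85, 7.98 and 5.88 on day 3, at least 11.5-fold lower on day 7 (adjusted p = 1.71e-07). The activin subunit Inhba fell (-2.38 ± 0.43), as did the activin antagonist Fst, by at least 3.99-fold (adjusted p = 5.91e-07), and Id1, a target of BMP signals (-1.27 ± 0.23). Igf2, a growth factor of the insulin family that meninges make, rose by 3.41 ± 0.82, with 10.42, 10.33, 9.27 and 9.41 on day 7, against 8.89, 5.03, 6.21 and 5.66 on day 3.

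Heat shock proteins refold proteins after stress under the factor HSF1. Of 18 such genes and their co-chaperones, 12 fell on day 7 and none rose (median difference -0.81), against 16.5% of all genes. Hspa1a, the inducible HSP70, had 7.02, 6.19, 5.92 and 5.96 on day 7, against 11.75, 13.12, 12.77 and 11.35 on day 3 (-5.97 ± 0.53, adjusted p = 9.34e-08), and its day 7 values were below the sham mean of 7.56. Cryab, alpha-B crystallin, had 12.80, 11.89, 12.73 and 13.14 on day 7, against 14.003, 14.30, 14.32 and 13.86 on day 3 (-1.48 ± 0.19, adjusted p = 1.03e-05), and Hspb8, a small heat shock protein, differed by -1.74 ± 0.34. Hsp90ab1, the constitutive HSP90, had 14.05, 14.25, 14.23 and 14.11 on day 7, against 14.21, 14.39, 14.64 and 14.23 on day 3 (-0.21 ± 0.11, adjusted p = 0.217), and Hmox1, heme oxygenase 1, 11.79, 12.59, 10.36 and 11.39 on day 7, against 12.45, 13.27, 13.36 and 12.66 on day 3 (-1.40 ± 0.58, adjusted p = 0.0981); neither passed.

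The heat shock element was searched as 3 alternating repeats with any 2 bases between them, GAA, TTC and GAA, or TTC, GAA and TTC on the other strand. It was in 5 of 15 list members with a promoter (33.3%; 4 of the 11 that passed the test), against 0.736% of all promoters. The promoter of Hsph1, which encodes the exchange factor HSP110, is printed with its match, which begins 36 bases before the start. Hsph1 is outside the naming rule and was taken as the member with the largest difference among those that passed and hold a match. It had 9.21, 9.38, 9.77 and 9.49 on day 7, against 10.28, 11.05, 10.76 and 10.45 on day 3 (-1.17 ± 0.24, adjusted p = 0.00121).
Hsph1, chr12:10427118-10427417, plus strand: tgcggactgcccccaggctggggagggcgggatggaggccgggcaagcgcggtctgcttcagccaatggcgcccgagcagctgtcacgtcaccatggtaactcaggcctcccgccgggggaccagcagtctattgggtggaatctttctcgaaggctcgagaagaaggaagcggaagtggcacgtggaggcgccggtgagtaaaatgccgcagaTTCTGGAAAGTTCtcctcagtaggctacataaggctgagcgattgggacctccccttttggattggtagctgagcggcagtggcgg

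Immediate early genes encode transcription factors that cells switch on within minutes of a stimulus. Of 27, 11 fell on day 7 and none rose. Fosl1, the AP-1 subunit FRA1, had 1.66, 1.69, 1.67 and 1.66 on day 7, against 8.76, 9.41, 9.20 and 7.62 on day 3, at least 45.5-fold lower on day 7 (adjusted p = 1.26e-12). Myc had 6.80, 7.23, 6.43 and 6.48 on day 7, against 9.56, 9.91, 9.93 and 9.10 on day 3 (-2.89 ± 0.19, adjusted p = 2.01e-09). Fos differed by -1.72 ± 0.30, Maff, a small MAF factor, by -3.06 ± 0.32, and Dusp5, a phosphatase that switches off ERK, by -4.95 ± 0.36. The injury factors Atf3 (-0.93 ± 0.42, adjusted p = 0.134) and Jun (-0.15 ± 0.16, adjusted p = 0.672) did not pass, and both were above their sham means (3.93 and 11.41) on all 8 arrays.

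The unfolded protein and integrated stress responses adjust folding in the endoplasmic reticulum and, through the factor ATF4, amino acid synthesis. Of 30 such genes 4 rose on day 7 and 7 fell. Atf4 itself had 10.74, 10.66, 10.61 and 10.81 on day 7, against 12.20, 12.51, 12.39 and 11.82 on day 3 (-1.53 ± 0.14, adjusted p = 1.72e-07). Its targets Chac1, a glutathione-degrading enzyme (-4.50 ± 0.34), Asns, asparagine synthetase (-1.84 ± 0.20), and Ppp1r15a, the phosphatase subunit GADD34 (-2.26 ± 0.29), fell. Hspa5, the chaperone BiP, had 13.35, 13.85, 13.33 and 13.23 on day 7, against 13.51, 14.15, 13.75 and 13.60 on day 3 (-0.31 ± 0.14, adjusted p = 0.125), and Pdia4, a disulfide isomerase, rose by 0.48 ± 0.13.

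Antioxidant genes driven by NRF2 were lower in 7 of 21 cases and higher in 3. After Gpx2 the largest falls were those of Srxn1, which repairs oxidised peroxiredoxin, with 7.35, 7.24, 7.23 and 7.47 on day 7, against 11.06, 12.07, 11.91 and 10.68 on day 3 (-4.11 ± 0.26, adjusted p = 1.90e-09), Txnrd1, thioredoxin reductase (-1.66 ± 0.14), and Slc7a11, the cystine importer (-1.49 ± 0.28). Nfe2l2, which encodes NRF2, rose by 1.06 ± 0.15, and Gpx1, the common glutathione peroxidase, by 1.16 ± 0.22. Nqo1, a classical target, had 9.96, 9.28, 9.96 and 10.48 on day 7, against 9.95, 9.71, 10.16 and 9.94 on day 3 (-0.02 ± 0.19, adjusted p = 0.975).

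Of 35 chemokines and receptors 4 rose and 6 fell, shares close to those of all genes (12.3% and 16.5%). Ccl2, the main attractant of monocytes, had 8.97, 10.75, 8.69 and 10.52 on day 7, against 13.39, 14.53, 14.41 and 13.50 on day 3 (-4.23 ± 0.50, adjusted p = 3.46e-06), and Ccl7, its neighbour in function, 3.56, 8.32, 3.51 and 5.81 on day 7, against 10.78, 12.23, 11.88 and 10.80 on day 3 (-6.12 ± 0.76, adjusted p = 6.72e-06), with day 7 replicate 2 high among the day 7 arrays. Cxcl2, an attractant of neutrophils, was at least 10.7-fold lower on day 7 (adjusted p = 5.48e-07), and Ccr1, a receptor on monocytes and neutrophils, differed by -3.85 ± 0.49. Cxcl12, which holds CXCR4-bearing cells in tissue, rose, with 11.61, 11.77, 9.04 and 9.89 on day 7, against 9.43, 4.34, 4.54 and 4.39 on day 3; day 3 replicate 1 overlapped the day 7 values (4.90 ± 0.94, adjusted p = 6.80e-04). Its receptor Cxcr4 rose by 2.14 ± 0.48.

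Interleukin-6 acts through gp130 and STAT3. Il6 had 2.37, 2.41, 2.38 and 2.38 on day 7, against 6.14, 6.85, 6.55 and 3.16 on day 3, at least 5.40-fold lower on day 7 (adjusted p = 2.76e-04), with day 3 replicate 4 below the control level as well. Socs3, the feedback inhibitor of STAT3, had 4.004, 4.01, 3.97 and 5.12 on day 7, against 7.71, 9.58, 9.53 and 7.67 on day 3 (-4.35 ± 0.38, adjusted p = 9.70e-08). Il11 was at least 2.74-fold lower on day 7, and Clcf1, another ligand of the family, differed by -1.92 ± 0.27. The shared receptor Il6st, gp130, had 12.11, 11.92, 11.99 and 12.24 on day 7, against 12.19, 12.16, 12.13 and 11.95 on day 3 (-0.04 ± 0.13, adjusted p = 0.889). Its other probe sets disagreed, with differences of -0.48, 0.58 and 0.85 that all passed (adjusted p = 0.00684, 0.0139 and 0.00117), so no direction is given for Il6st. In this list 1 of 20 rose and 9 fell, and 0 and 5 without day 7 replicates 2 and 3. Among interleukin-1 genes the decoy receptor Il1r2 was at least 14.7-fold lower (adjusted p = 2.09e-08), and the receptor subunit Il1rap (-1.83 ± 0.30) and the alarmin Il33 (-2.14 ± 0.21) fell. Il18bp, which binds interleukin-18, rose by 2.22 ± 0.56; 4 of 18 rose and 5 fell. In the NF-kappaB and TNF list, the numbers were 4 and 4 of 22: the endothelial adhesion molecule Vcam1 rose by 2.17 ± 0.15, while Nfkbiz, an inducible regulator of NF-kappaB, fell by 3.21 ± 0.33 and Tnfrsf12a, the receptor FN14, by 2.80 ± 0.20.

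Neutrophil genes fell in 5 of 16 cases and rose in none. S100a8, the partner of S100a9, had 3.96, 4.32, 3.99 and 3.98 on day 7, against 10.87, 10.49, 10.93 and 10.45 on day 3 (-6.62 ± 0.28, adjusted p = 9.50e-12), and Lcn2, a siderophore-binding protein of neutrophils and reactive astrocytes, 2.26, 2.65, 3.75 and 6.60 on day 7, against 11.56, 10.45, 10.58 and 12.02 on day 3 (-7.34 ± 1.03, adjusted p = 2.62e-05). The defining granule and neutrophil genes Mmp9, Camp, Cebpe and Padi4 were at or under the control level on all 8 arrays. Of 27 markers of blood-derived macrophages and monocytes 8 were higher and 3 lower, and the share that fell was below the 16.5% of all genes. Arg1, arginase of repair-type macrophages, had 5.24, 9.59, 4.61 and 4.55 on day 7, against 11.14, 12.11, 11.65 and 11.30 on day 3 (-5.55 ± 0.79, adjusted p = 2.98e-05); day 7 replicate 2 was high among the day 7 arrays but below all day 3 arrays. Folr2, a folate receptor of tissue macrophages, had 11.38, 12.19, 8.99 and 10.14 on day 7, against 5.01, 6.72, 7.76 and 5.51 on day 3 (4.43 ± 0.62, adjusted p = 2.53e-05), and the integrin chain Itgal rose by 3.33 ± 0.40. Cd14, the co-receptor for lipopolysaccharide and first marker of the list, had 10.61, 11.41, 8.67 and 8.999 on day 7, against 10.71, 11.07, 11.73 and 11.20 on day 3 (-1.26 ± 0.46, adjusted p = 0.0564).

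**Figure D5:**
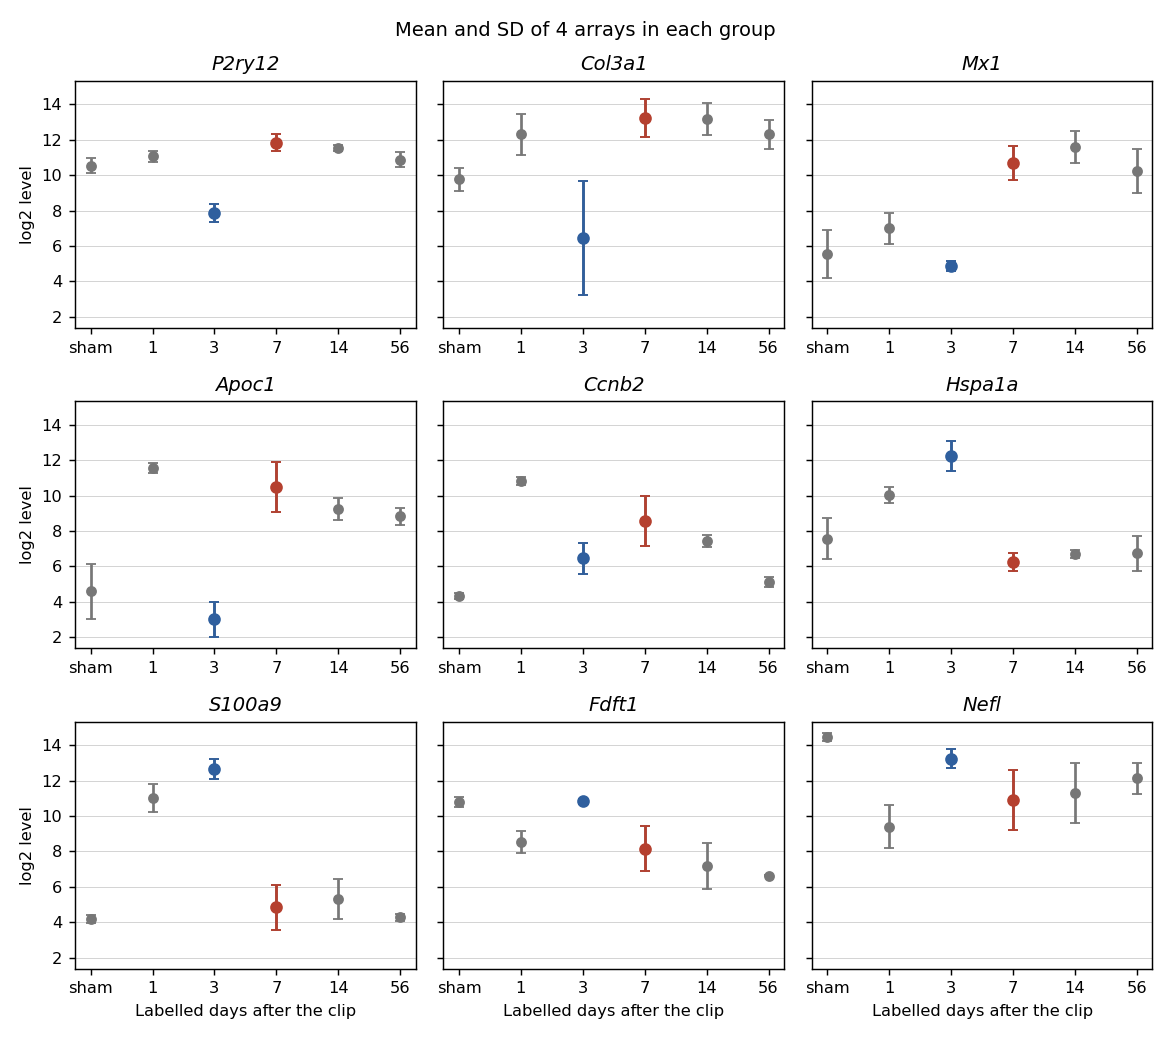
Mean log2 level ± SD (n = 4 rats each) of 9 genes in sham cord and in cord labelled as day 1, 3, 7, 14 or 56 after the clip. P2ry12 and Col3a1 are lowest on day 3 and Hspa1a and S100a9 highest on it, while Ccnb2 is highest on day 1.

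Making ribosomes takes place in the nucleolus and scales with growth. Of 24 genes of ribosome biogenesis, 22 fell on day 7 and none rose (median difference -1.08). Fbl, the methyltransferase fibrillarin, had 10.58, 11.09, 10.14 and 10.55 on day 7, against 11.84, 12.26, 12.15 and 11.75 on day 3 (-1.41 ± 0.16, adjusted p = 2.19e-06), and Bop1, a factor of the large subunit, 7.81, 7.93, 7.38 and 7.72 on day 7, against 9.33, 9.73, 9.49 and 9.08 on day 3 (-1.70 ± 0.17, adjusted p = 6.24e-07). Rrp9 (-2.04 ± 0.26) and Nolc1 (-1.57 ± 0.18), nucleolar proteins, did not overlap between the days. Of 21 ribosomal proteins 1 rose and 1 fell, and none rose and 4 fell after quantile normalization of all arrays. Rplp0, of the ribosome stalk, had 14.59, 14.71, 14.24 and 14.54 on day 7, against 14.50, 14.61, 14.58 and 14.46 on day 3 (-0.01 ± 0.09, adjusted p = 0.959). The member that fell was Rpl4, by 0.34 ± 0.08 (adjusted p = 0.00576). The median level of the biogenesis genes was 8.11 in sham cord, 9.13 on day 1, 9.63 on day 3, 8.82 on day 7, 8.46 on day 14 and 8.39 on day 56.

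Cholesterol synthesis supplies the membranes of myelin and of growing cells and is controlled by SREBP2. Of 24 genes of the pathway, its regulators and desaturases, 21 fell and 1 rose (median difference -1.43); without day 7 replicates 2 and 3 the counts were 18 and 1. Fdft1, squalene synthase, had 7.60, 6.61, 9.35 and 9.01 on day 7, against 10.91, 10.79, 10.94 and 10.65 on day 3 (-2.68 ± 0.54, adjusted p = 0.00113). Mvd, mevalonate decarboxylase, had 4.55, 4.44, 4.78 and 5.42 on day 7, against 7.57, 6.96, 7.76 and 7.53 on day 3 (-2.65 ± 0.32, adjusted p = 5.00e-06), and Mvk, mevalonate kinase, 5.70, 6.09, 6.003 and 6.44 on day 7, against 7.64, 7.61, 7.27 and 7.55 on day 3 (-1.46 ± 0.21, adjusted p = 3.63e-05). Scd, a stearoyl-CoA desaturase (-2.95 ± 0.59), and Tm7sf2, a sterol reductase (-2.67 ± 0.48), fell as well. Day 7 replicates 1 and 2 were the lowest arrays for Fdft1, Scd and Tm7sf2. The day 3 means of Fdft1 and Scd lay close to their sham means (10.82 against 10.79 and 9.76 against 9.68). The member that rose was Srebf1, which encodes the related factor SREBP1 and is a target of oxysterol receptors, with 9.36, 9.33, 9.32 and 9.13 on day 7, against 7.03, 6.94, 7.38 and 6.99 on day 3 (2.20 ± 0.21, adjusted p = 2.81e-07). Scd2, the bright desaturase of the brain, had 14.82, 14.55, 15.07 and 14.83 on day 7, against 14.83, 14.83, 14.90 and 14.86 on day 3 (-0.04 ± 0.10, adjusted p = 0.883). The sterol element, searched as TCACNCCAC and GTGGNGTGA, was in 0 of the 18 list members with a promoter and in 1.13% of all promoters.

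Of 33 genes of the hypoxia and glycolysis list, which holds sugar transporters, glycolytic enzymes and targets of the hypoxia factor, 14 fell and 2 rose. Slc2a3, the neuronal glucose transporter, had 5.53, 5.44, 6.08 and 5.55 on day 7, against 8.37, 8.59, 7.41 and 7.85 on day 3 (-2.40 ± 0.20, adjusted p = 5.54e-08), and Slc2a1, that of vessels and glia, differed by -0.94 ± 0.13. Vegfa, the hypoxia-induced endothelial growth factor, had 6.70, 6.62, 6.71 and 6.01 on day 7, against 7.75, 8.51, 9.05 and 7.53 on day 3 (-1.70 ± 0.30, adjusted p = 2.80e-04), with a sham mean of 8.17. Pfkfb3, which speeds glycolysis, fell by 1.05 ± 0.17. Hk2, the hexokinase of activated cells, rose by 1.63 ± 0.43, with 8.29, 8.84, 6.64 and 8.58 on day 7, against 5.88, 6.64, 7.11 and 6.19 on day 3, whose days overlapped. In the respiratory chain 12 of 37 fell and 1 rose, by small amounts, the largest being those of Cox5a (-0.86 ± 0.15) and Uqcrc1 (-0.73 ± 0.11); without day 7 replicates 2 and 3 the counts were 8 and 0.

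Genes of DNA replication and of mitosis did not share a direction. Those of DNA replication fell in 13 of 34 cases and none rose (median difference -0.50), among them Orc6, a subunit of the origin recognition complex, with 4.57, 4.83, 3.76 and 4.03 on day 7, against 6.70, 7.19, 7.05 and 6.36 on day 3 (-2.53 ± 0.23, adjusted p = 1.29e-07). Mcm2, a subunit of the replicative helicase, had 7.11, 8.18, 5.03 and 6.61 on day 7, against 7.54, 7.78, 7.69 and 7.67 on day 3 (-0.94 ± 0.46, adjusted p = 0.178). Genes of mitosis rose in 7 of 46 cases and fell in 1, close to the 12.3% of all genes (median difference 0.41). Ccnb2, a mitotic cyclin, had 8.59, 10.01, 6.70 and 8.98 on day 7, against 6.51, 6.03, 5.66 and 7.65 on day 3 (2.10 ± 0.48, adjusted p = 0.00311), and Pttg1, securin, differed by 1.83 ± 0.44. Cdk1 had 8.87, 9.97, 7.08 and 8.92 on day 7, against 8.40, 8.25, 8.003 and 9.03 on day 3 (0.29 ± 0.40, adjusted p = 0.771), and Mki67 9.69, 10.95, 8.26 and 9.67 on day 7, against 8.63, 9.12, 8.75 and 9.86 on day 3 (0.55 ± 0.44, adjusted p = 0.498); day 7 spanned more than 2 units in each, with replicate 2 highest and replicate 3 lowest. The mitosis list had a median level of 3.17 in sham cord, 8.24 on day 1, 4.24 on day 3, 4.98 on day 7, 3.78 on day 14 and 3.31 on day 56. Of D and E cyclins, their kinases and inhibitors, 3 of 19 rose and 4 fell, and 3 and 1 without day 7 replicates 2 and 3. Cdkn1c, the inhibitor p57, rose by 1.69 ± 0.39.

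Neuronal genes were lower on 3 of the 4 day 7 arrays. Of 32 neuronal genes 16 fell and none rose (median difference -1.32). Chga, a protein of secretory granules, had 5.42, 5.35, 8.03 and 6.23 on day 7, against 8.92, 8.53, 8.12 and 8.35 on day 3 (-2.22 ± 0.55, adjusted p = 0.00560). Nefl, the light neurofilament chain, had 9.81, 9.65, 13.31 and 10.79 on day 7, against 13.78, 13.20, 12.53 and 13.46 on day 3 (-2.35 ± 0.81, adjusted p = 0.0435): day 7 replicate 3 lay among the day 3 arrays, and the call was lost without any 1 of day 7 replicates 1, 2 and 4 and day 3 replicates 1, 2 and 4 (adjusted p 0.0799 to 0.141). The mean of the neuron list on day 7 replicates 1 to 4 was 8.51, 8.39, 10.20 and 9.04, against 10.46, 10.52, 10.12 and 10.19 on day 3. Snap25, a synaptic SNARE protein and bright in cord, did not pass, at 11.45, 11.10, 13.46 and 12.11 on day 7, against 13.71, 13.51, 13.31 and 13.54 on day 3 (-1.49 ± 0.66, adjusted p = 0.128).

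Spinal neuropeptides fell in 12 of 18 cases and none rose (median difference -1.36). In 8 of the 18 the day 7 values lay wholly below the day 3 values, against 14.7% of all genes. Gal, galanin, which axotomised neurons make, had 4.78, 4.79, 7.12 and 6.58 on day 7, against 11.08, 11.57, 11.58 and 10.72 on day 3 (-5.42 ± 0.60, adjusted p = 1.96e-06). Tac1, which encodes substance P, had 4.12, 3.83, 4.41 and 4.52 on day 7, against 8.50, 9.40, 8.73 and 7.50 on day 3 (-4.32 ± 0.54, adjusted p = 7.40e-06). Adcyap1, which encodes the peptide PACAP, differed by -2.42 ± 0.38. For Gal and Tac1 all day 3 arrays were above the sham means of 7.39 and 5.01, and all day 7 arrays below them. Penk, proenkephalin, the first gene of the list, had 9.65, 9.37, 10.97 and 10.39 on day 7, against 11.55, 11.80, 11.76 and 10.90 on day 3 (-1.40 ± 0.70, adjusted p = 0.189). Bdnf, the neurotrophin, had 2.86, 2.94, 3.53 and 2.93 on day 7, against 4.64, 6.69, 5.21 and 4.84 on day 3 (-2.28 ± 0.31, adjusted p = 1.93e-05). With the 3 day 7 arrays under the control level set to it, the difference was -2.03.

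Axon growth-associated genes fell in 12 of 26 cases and rose in 3. Gap43, the growth cone protein, had 11.57, 11.63, 12.45 and 12.17 on day 7, against 13.05, 13.26, 13.44 and 13.12 on day 3 (-1.26 ± 0.26, adjusted p = 0.00124), and Sox11, a factor of axon regeneration, 2.78, 2.78, 3.43 and 2.78 on day 7, against 5.27, 6.25, 6.90 and 5.05 on day 3 (-2.92 ± 0.29, adjusted p = 4.47e-07). For Sox11, 3 day 7 arrays were under the control level, and the difference with them set to it was -2.58. Marcks, an actin-binding substrate of protein kinase C that glia also make, rose by 1.56 ± 0.18. Of axon guidance genes 7 of 39 rose and 1 fell. Ntn1, netrin 1, rose by 1.49 ± 0.35, and its receptor Unc5b fell by 0.95 ± 0.20. Among channels and synaptic genes no member rose: 4 of 10 sodium channel subunits, 9 of 35 potassium channels, 3 of 18 calcium channel subunits, 5 of 23 genes of GABA and glycine, 3 of 23 glutamate receptors and transporters and 8 of 30 genes of vesicle release fell (13 when probe sets averaging under 5 on both days were left out). No sodium channel subunit had its 4 day 7 values wholly below those of day 3. The calls of Scn1a, Scn2a, Scn3b and Scn4b were lost with only the 8 arrays in the fit (adjusted p 0.0704 to 0.124). The mean of the sodium channel list was 4.30, 3.90, 5.32 and 4.72 on day 7, against 5.63, 5.48, 5.29 and 5.46 on day 3. The shares that fell of the calcium channel, GABA and glycine, and glutamate genes were near the 16.5% of all genes. On both days 12 of the calcium channel and 8 of the glutamate members were at the control level. Slc32a1, which loads GABA and glycine into vesicles, had 2.30, 2.34, 3.28 and 2.47 on day 7, against 6.35, 4.45, 4.69 and 3.95 on day 3 (-2.26 ± 0.46, adjusted p = 0.00117), with all but 1 day 7 array at the control level (-1.61 with these set to it). Kcnc1, a fast potassium channel, had 5.03, 4.28, 7.81 and 5.44 on day 7, against 9.09, 9.61, 7.93 and 8.64 on day 3 (-3.18 ± 0.85, adjusted p = 0.00964), where replicate 3 again was the highest of day 7.

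Gfap and Aqp4, which mark astrocytes, did not pass the test. Gfap, their filament protein, had 14.55, 14.24, 14.80 and 14.90 on day 7, against 14.33, 14.39, 14.45 and 14.49 on day 3 (0.21 ± 0.14, adjusted p = 0.377) and Aqp4, their water channel, 13.68, 12.93, 14.56 and 14.18 on day 7, against 13.75, 13.40, 13.75 and 13.66 on day 3 (0.20 ± 0.35, adjusted p = 0.817). Of 24 genes of resting astrocytes 6 rose and 1 fell. Slc15a2, a peptide transporter, had 8.53, 7.28, 9.24 and 9.33 on day 7, against 4.69, 3.58, 3.63 and 3.71 on day 3 (4.69 ± 0.74, adjusted p = 9.23e-05); its sham mean was 9.18. Slc4a4, a bicarbonate transporter, rose by 1.63 ± 0.39, and Fabp7, a fatty acid carrier of radial glia, by 1.51 ± 0.22. The member that fell was Slc1a2, the glutamate transporter GLT-1, whose probe set was dim, with 2.48, 2.64, 3.95 and 3.34 on day 7, against 5.30, 3.71, 4.52 and 4.34 on day 3 (-1.37 ± 0.36, adjusted p = 0.00896, and 0.0892 with only the 8 arrays in the fit); with the 2 day 7 arrays under the control level set to it, the difference was -1.03. The reactive astrocyte genes rose in 6 of 24 cases and fell in 9, and 6 and 6 without day 7 replicates 2 and 3. Those that fell included Lcn2, Serpina3n, the lipid kinase Sphk1 (-3.46 ± 0.28) and Tm4sf1 (-2.33 ± 0.24), and those that rose Gbp2 (1.78 ± 0.34) and Ggta1 (1.62 ± 0.34).

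Mbp and Mobp, of compact myelin, did not pass on their brightest probe sets. Mbp had 15.08, 14.93, 15.24 and 15.26 on day 7, against 15.13, 15.16, 15.22 and 15.18 on day 3 (-0.05 ± 0.06, adjusted p = 0.758), and Mobp 14.84, 14.22, 15.21 and 15.03 on day 7, against 15.21, 15.02, 15.22 and 14.98 on day 3 (-0.28 ± 0.18, adjusted p = 0.357). A dimmer Mbp probe set did pass, with a mean of 12.01 on day 7 and 10.88 on day 3 (1.13, adjusted p = 7.41e-04), so the probe sets of Mbp disagreed. Of 25 genes of myelinating oligodendrocytes 4 rose and 2 fell. Cnp, a phosphodiesterase of myelin, had 13.73, 13.44, 13.99 and 14.02 on day 7, against 13.37, 13.28, 13.45 and 13.18 on day 3 (0.48 ± 0.12, adjusted p = 0.00835, and 0.0676 with only the 8 arrays in the fit). Aspa, which breaks down acetylaspartate for myelin lipid, rose by 1.59 ± 0.19, and Car2, carbonic anhydrase, fell by 1.67 ± 0.42. Of the precursor list 6 of 16 rose and none fell. Pdgfra, the growth factor receptor of precursors and also of fibroblasts, had 11.13, 11.35, 10.57 and 10.36 on day 7, against 9.70, 7.61, 8.43 and 9.003 on day 3 (2.16 ± 0.35, adjusted p = 1.39e-04), and Lhfpl3 differed by 1.58 ± 0.26. Sox10, a factor of the whole lineage, differed by -0.29 ± 0.20 (adjusted p = 0.391), and Olig1 by -0.13 ± 0.26 (adjusted p = 0.842).

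Vessel genes fell in 7 of 27 cases and rose in 4. Pecam1, the junctional protein of endothelium, had 6.12, 5.88, 6.54 and 6.12 on day 7, against 7.88, 7.17, 7.62 and 7.33 on day 3 (-1.34 ± 0.18, adjusted p = 1.62e-05). Nos3, endothelial nitric oxide synthase, was at least 4.68-fold lower on day 7 (adjusted p = 4.84e-12), and Mfsd2a, a lipid transporter of the barrier, at least 2.33-fold lower (adjusted p = 3.06e-08). Ocln, a tight junction protein, rose, with 9.43, 9.43, 8.69 and 9.06 on day 7, against 6.48, 4.59, 5.71 and 6.15 on day 3 (3.42 ± 0.28, adjusted p = 3.40e-08), while Cldn5, the main claudin of the barrier, had 10.48, 10.42, 11.14 and 10.56 on day 7, against 11.10, 10.04, 9.74 and 10.39 on day 3 (0.33 ± 0.23, adjusted p = 0.408). Among angiogenic genes, 4 of 25 rose and 6 fell, and 5 and 4 when probe sets averaging under 5 on both days were left out. The VEGF receptor Flt1 fell (-3.12 ± 0.28), as did Apln, the apelin of vessel sprouts, with 6.89, 6.39, 7.74 and 7.29 on day 7, against 10.79, 11.50, 10.92 and 10.54 on day 3 (-3.86 ± 0.42, adjusted p = 1.26e-06), and the co-receptor Nrp1 rose by 3.32 ± 0.39. Hbb, the beta chain of hemoglobin, had 13.06, 12.28, 13.05 and 13.07 on day 7, against 15.07, 15.49, 14.88 and 15.55 on day 3 (-2.38 ± 0.31, adjusted p = 1.30e-05); the days did not overlap. Of the 12 red cell genes 1 rose and 2 fell, and the part of blood in the other differences was not tested.

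Of 11 genes commonly used as references, 2 rose and 3 fell. Those that rose were Gusb and B2m, given above, and those that fell Pgk1 (-0.54 ± 0.12), Ywhaz (-0.47 ± 0.09) and Tfrc (-0.79 ± 0.23, adjusted p = 0.0197). The call of Tfrc was lost without any 1 of day 7 replicates 3 and 4 and day 3 replicate 2 (adjusted p 0.0599 to 0.0740). Hprt1 had 11.67, 12.22, 11.03 and 11.01 on day 7, against 11.55, 11.50, 11.41 and 11.23 on day 3 (0.06 ± 0.22, adjusted p = 0.908), Tbp differed by -0.11 ± 0.07 (adjusted p = 0.322), and Eef1a1 by 0.08 ± 0.07 (adjusted p = 0.574).

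Day 7 and day 3 were each also set against the arrays labelled 1 day, a comparison chosen after seeing the data, and both contrasts share the day 1 arrays. Of 14217 genes, 869 were higher (6.11%) and 2121 lower (14.9%) on day 7 than on day 1, 21.0% in all. On day 3, 2365 were higher (16.6%) and 2452 lower (17.2%) than on day 1, 33.9% in all. Mitosis genes were lower than on day 1 in 40 of 46 cases on day 7 and in 41 on day 3, and none was higher on either day. Homeostatic microglia genes were higher in 4 and lower in 0 of 21 on day 7, and higher in 0 and lower in 18 on day 3. Lysosomal genes were higher in 6 and lower in 0 of 43 on day 7, and higher in 1 and lower in 34 on day 3. Cholesterol genes were higher in 2 and lower in 3 of 24 on day 7, and higher in 20 and lower in 1 on day 3. Neuronal genes were higher in 6 and lower in 0 of 32 on day 7, and higher in 30 and lower in 0 on day 3.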

How the data were processed

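RNA of single rats was hybridised to Affymetrix whole-genome rat arrays (24 arrays, 6 groups of 4). The authors deposited log2 values of 31099 probe sets, made with affy 1.12.2 and GCRMA, which corrects background by probe sequence, quantile-normalizes and summarises probe sets, and the methods state that each time point was pre-processed separately. Depth has no meaning for arrays, and the number of rats limits the precision.

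The deposited values were used unchanged. A linear model of the 6 groups was fitted to all 24 arrays with limma 3.58.1 (lmFit, eBayes) in R 4.3.3, day 7 minus day 3 was tested over 31042 probe sets without controls, and Benjamini-Hochberg adjustment ran over all of them. Probe sets of 1 gene symbol (20826) were named through the platform annotation, and each of 14217 genes was represented by its brightest probe set over the 24 arrays. Of 1618 listed genes 1413 were measured and 205 were not analysed here. The fit was tested on simulated data with known changes. Array-level measures were compared by exact permutation tests in Python 3.11.15 (scipy 1.17.1). Alternatives were other moderation, quantile normalization, median centring, a filter on dim probe sets, a replicate block, means of probe sets, other sets of arrays and an unadjusted threshold.

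The comparison and the 67 gene lists were chosen with earlier results of these data known. Named genes were taken from several sources. The first was the 15 largest differences each way among genes that passed, did not overlap and averaged at least 5 on the brighter day. Others were up to 4 members each way in a list and the first gene of each cell type list. The brightest members that did not pass and reference genes were added. These rules gave 320 genes that passed, and not all of them are named, by a choice that followed no fixed rule. Ctsd, Hsph1, Irgm and Psmb8, shown for their promoters, and Atf3, Mcm2, Nqo1, Camp, Cebpe, Mmp9, Padi4 were chosen after their values were seen. Differences with arrays under the control level set to it carry no test and were added after the data were seen.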

Additional observations from a re-analysis of the deposited data

Results flagged for a closer look

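Among the 486 groups of 4 arrays behind the genes named here, 1 array stood apart from the other three in 31 (6.38%), 17 on day 7 and 14 on day 3. The gap to the nearest array, as a share of the range of the group, was then above Dixon's limit for 4 values, which chance passes in about 1 group in 20. Day 7 replicate 1 was the high array for Adamts9 (5.09, others 4.41 to 4.46). Day 7 replicate 2 was the high array for Arg1 (9.59, others 4.55 to 5.24), Nfkbiz (4.63, others 3.51 to 3.64), Nolc1 (9.39, others 8.75 to 8.77), S100a8 (4.32, others 3.96 to 3.99) and S100a9 (6.74, others 4.19 to 4.25). Day 7 replicate 2 was the low array for Hbb (12.28, others 13.05 to 13.07) and Sox10 (10.62, others 11.004 to 11.03). Day 7 replicate 3 was the high array for Bdnf (3.53, others 2.86 to 2.94), Slc2a1 (11.08, others 10.48 to 10.58), Slc2a3 (6.08, others 5.44 to 5.55) and Sox11 (3.43, others 2.78 to 2.78). Day 7 replicate 3 was the low array for B2m (14.20, others 14.55 to 14.59), Rrp9 (4.82, others 5.23 to 5.30) and Tbp (6.997, others 7.10 to 7.12). Day 7 replicate 4 was the high array for Socs3 (5.12, others 3.97 to 4.01). Day 7 replicate 4 was the low array for Vegfa (6.01, others 6.62 to 6.71). Day 3 replicate 1 was the high array for Col15a1 (8.05, others 5.04 to 5.49), Cxcl12 (9.43, others 4.34 to 4.54), Serpinf1 (5.59, others 2.40 to 2.69) and Slc15a2 (4.69, others 3.58 to 3.71). Day 3 replicate 1 was the low array for Cd74 (9.25, others 10.03 to 10.15) and Plxnc1 (2.17, others 2.28 to 2.30). Day 3 replicate 2 was the high array for Cxcl2 (8.58, others 5.76 to 6.21) and Pgk1 (14.13, others 13.83 to 13.84). Day 3 replicate 2 was the low array for Bmp4 (6.26, others 6.94 to 7.07) and Itgal (5.99, others 6.31 to 6.34). Day 3 replicate 3 was the high array for Mx1 (5.31, others 4.69 to 4.75) and Tm4sf1 (10.66, others 9.88 to 9.91). Day 3 replicate 4 was the high array for Acta1 (4.45, others 2.67 to 2.90). Day 3 replicate 4 was the low array for Ggta1 (5.15, others 6.46 to 6.57). Arg1, S100a9 and Hbb on day 7 replicate 2, Sox11 on day 7 replicate 3 and Col15a1, Cxcl12 and Serpinf1 on day 3 replicate 1 kept their calls without that array. No cause was tested.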

How the results depend on the processing

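The total of 4090 genes fell to 2674 when the fit held only the 8 arrays of day 7 and day 3. That fit leaves 6 residual degrees of freedom in place of 18 and takes the spread from those 8 arrays alone. The part of each in the drop was not tested. Leaving out 1 array at a time gave 3315 to 4241 genes, lowest without day 7 replicate 1, and 1455 to 1950 genes with a difference of at least 1, where all arrays gave 1660. Every other setting left both totals within 1.5 times, and the share of higher genes stayed between 40.0% and 45.7% of the first total and between 49.1% and 53.2% of the second, where leaving out day 3 replicate 4 turned the balance (843 higher and 875 lower, against 863 and 797). The replicate numbers did not pair the samples, since the deviations of same-numbered arrays correlated at 0.004, 0.116, -0.201 and 0.058, and with the replicate number as a block 3932 and 1606 genes passed. Of 191 named genes that passed, none changed direction, and none lost the call under quantile normalization, median centring, an intensity trend or robust moderation. In the fit of 8 arrays 18 lost it (Ccnb2, Cd36, Cd44, Chga, Cnp, Cxcl12, Cxcr4, Foxj1, Hk2, Lgmn, Ncf4, Nefl, Pdia4, Pttg1, Slc1a2, Slc40a1, Tfrc and Tgfb1), Nefl and Timp1 lost it without moderation and with the block, and Cd44 and Nefl when all probe sets of a gene were averaged. The naming rules gave 320 genes that passed, not all of them named here, and calls in that wider set were less stable. Of the 320, 11 lost the call under quantile normalization, 3 under median centring and 1 with robust moderation. In the fit of 8 arrays 93 of the 320 lost it, and none changed direction. With members at the control level set at their bound, the median difference was 0.34 for mitosis, -1.06 for ribosome biogenesis and -1.33 for neuropeptides. Of the D and E cyclin list 3 members rose and 2 fell with median centring, in place of 3 and 4. Of the genes named as passing, 46 had 56 further probe sets with a mean of at least 5, none of opposite sign. Not all of these passed: probe sets of Car2, Cd44, Cxcl12, Mcl1, Mx2, Nefl and Tfrc did not (adjusted p 0.0900 to 0.473). The difference was 2.14 for that of Mx2, whose brightest probe set gave 3.75, and 0.95 for that of Cxcl12, whose brightest gave 4.90. Another Cxcl12 probe set passed (3.59, adjusted p = 0.0207). Probe sets averaging under 5 on both days were left out of these counts. Such probe sets of Bcl2l11, whose brightest gave 5.13, did not pass (differences -0.006 and -0.06, adjusted p = 0.920 and 0.778). Of the named genes that did not pass, 12 had 20 further probe sets with a mean of at least 5. Of these probe sets 5 passed, from 3 genes (Eef1a1, Il6st and Mbp). The p-values measure only the spread between rats, pooled over the 6 groups of the series. With 4 rats a day, a gene that did not pass is not shown to be equal on both days. Probe sets near the control level have differences compressed by background.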

Other observations

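Counts for further gene groups follow, against 12.3% of all genes higher and 16.5% lower on day 7; no group was tested, and the shares in the B cell, Bcl-2 and caspase, neurotrophic factor and pericyte lists were little above these or below them. Among T and NK cell genes 6 of 28 rose and none fell, and 3 rose when probe sets averaging under 5 on both days were left out. Cd8a, a co-receptor of cytotoxic T cells that rat macrophages may also carry, had 8.60, 10.17, 6.60 and 7.06 on day 7, against 2.76, 4.15, 6.20 and 2.90 on day 3 (4.10 ± 0.70, adjusted p = 2.33e-04), and Cd4, likewise found on rat macrophages and microglia, 6.90, 7.67, 6.35 and 7.47 on day 7, against 4.17, 3.91, 4.09 and 4.17 on day 3 (3.01 ± 0.40, adjusted p = 1.43e-05). Of the defining T cell receptor chains, Cd3d was at or under the control level on all 8 arrays, and Cd3e did not pass, with 4.92, 5.17, 5.08 and 5.13 on day 7, against 5.25, 4.99, 4.90 and 5.23 on day 3 (-0.02 ± 0.18, adjusted p = 0.963). Of 12 B cell genes 2 rose and none fell, and Blnk, an adaptor of B cells and macrophages, differed by 3.30 ± 0.25. Bcl2l11, the gene of BIM, which promotes cell death, had 9.70, 9.84, 8.10 and 8.31 on day 7, against 2.93, 3.60, 5.40 and 3.51 on day 3 (5.13 ± 0.50, adjusted p = 3.38e-07), while the survival gene Mcl1 fell by 0.44 ± 0.12 (adjusted p = 0.0125, lost when day 7 replicates 2 and 3 were left out together); over the family and its caspases 5 of 24 rose and 3 fell. Iron genes rose in 5 of 19 cases and fell in 2, with the iron exporter Slc40a1 at 7.74, 8.28, 5.50 and 4.01 on day 7, against 3.58, 3.81, 3.78 and 3.87 on day 3 (2.62 ± 0.64, adjusted p = 0.00500) and ceruloplasmin, Cp, higher by 1.49 ± 0.25.

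In coagulation 8 of 22 rose and 6 fell, among them Procr, the endothelial receptor for protein C, with 9.55, 8.69, 9.05 and 8.85 on day 7, against 11.61, 11.26, 11.24 and 11.38 on day 3 (-2.34 ± 0.18, adjusted p = 1.41e-08). Of neurotrophic factors and receptors 5 of 29 rose and 5 fell, and Ptn, the heparin-binding growth factor pleiotrophin, had 12.56, 12.04, 12.39 and 12.20 on day 7, against 10.56, 9.43, 10.23 and 10.31 on day 3 (2.16 ± 0.20, adjusted p = 2.45e-07). Pericyte and smooth muscle genes rose in 4 of 21 cases and fell in 1, with Tagln, an actin-binding protein of smooth muscle, higher by 1.76 ± 0.39. Of 14 ependymal genes 3 rose and none fell, and Foxj1, the factor of motile cilia, had 6.07, 5.65, 6.09 and 6.36 on day 7, against 5.20, 5.12, 4.52 and 5.99 on day 3 (0.84 ± 0.22, adjusted p = 0.00853). Acta1, the actin of skeletal muscle, was high on day 7 replicates 1 and 3, with 8.38, 3.49, 8.73 and 3.48 on day 7, against 2.90, 2.79, 2.66 and 4.45 on day 3 (2.82 ± 1.32, adjusted p = 0.154); its source was not tested. The adipocyte hormone Adipoq was at or under the control level on all 8 arrays. Of 10216 probe sets without a single gene symbol 1342 passed the test (13.1%), against 5321 of the 20826 with 1 symbol (25.55%).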
